A study of Mus musculus with 13 samples.

Results

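The transcripts described here are 46 mouse genes of proliferation and the cell cycle, taken by symbol from a raw count table of 21868 genes in sorted epithelial cells of the jejunum. All 46 were in the table and all 46 passed the filter on low counts, which kept 14300 genes. They were split into 3 classes by the stage at which their products act: 5 genes of G1 entry, 16 genes of S phase, and 25 genes of G2 and mitosis.

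The study compared feeding schedules that differ in when food was given within the active phase. Mice in the breakfast-skipping group (BSF, 2 libraries) had food from ZT16 to ZT24, where ZT is Zeitgeber time, the hour counted along the light cycle. Mice in the lunch-skipping group (LSF, 3 libraries) had food from ZT12 to ZT16 and again from ZT20 to ZT24, and mice in the dinner-skipping group (DSF, 2 libraries) from ZT12 to ZT20. These 3 schedules ran for 2 weeks. A further group, BSF_C (3 libraries), is labelled as breakfast skipping combined with control, and con (3 libraries) is the control. The feeding hours of con and BSF_C, and the strain, age, sex and hour of tissue collection, are not given in the sources used here. All 13 libraries are described as coming from EpCAM+ cells lacking CD45, CD11b, CD3 and B220.

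The jejunal epithelium renews itself from crypts, where Lgr5+ stem cells and their transit-amplifying daughters divide before cells move onto the villus and stop cycling. Cyclin D and cyclin E with their kinases drive the passage from G1 into S phase, when the E2F factors switch on the genes that license origins, copy DNA and make nucleotides. A later wave of genes, driven through the MuvB complex with B-Myb and FoxM1, supplies the cyclins, kinases, kinetochore parts and motors of mitosis. In bulk samples such as these, fewer cells of a type and less RNA per cell cannot be told apart.

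Library totals were 4851239 to 5202146 counts in con and 7127769 to 8589351 in the other 10 libraries. The con libraries stood apart in content as well. The summed level of 15 skin keratinocyte markers was 666 to 761 CPM, the count scaled to library size, in con and 5.25 to 10.4 CPM elsewhere, with 3 to 8 of the 15 at 0 in each of the other groups. The summed level of 12 enterocyte markers was 6790 to 7630 CPM in con and 24500 to 36800 CPM elsewhere, with none of the 12 at 0 in any group. Markers of further cell types were low in con: 8 Paneth cell markers summed to 316 to 366 CPM (1330 to 1840 elsewhere) and 15 leukocyte markers to 46 to 49.8 CPM (198 to 332 elsewhere). In con, 8 heart muscle markers summed to 7.49 to 11.1 CPM (87.5 to 277 elsewhere) and 8 stromal markers to 0.416 to 1.24 CPM (13.5 to 54.9 elsewhere), with 4 of the 8 at 0 in each of these lists. The 6 epithelial sort markers summed to 5090 to 6120 CPM over all groups. Against con, 36.6% to 39.8% of all genes tested rose and 31.1% to 33.2% fell, so the comparisons among the other 4 groups carry most of what follows. The labels call the libraries biological replicates without naming the animals behind them. The p-values therefore speak only to the spread among these libraries.

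The promoters of the members were searched for motifs of the S-phase and mitotic waves. Promoter sequences from RefSeq (assembly GRCm38.p6) were matched by symbol for 37 of the 46 genes, with 40 start sites. Those without an entry were Aurkb, Ccna2, Ccnd1, Ccne2, Foxm1, Gins2, Kif20a, Mcm4 and Tpx2. Within 250 bases before the start, on either strand, an E2F site (TTTCCCGC, TTTCGCGC, TTTGCCGC or TTTGGCGC) was found in 5 of 14 S-phase genes and in 1 of 20 mitotic genes. The share over all 27025 genes of the promoter table, counted in the same way, was 2.16%. A cell cycle homology region, or CHR (TTTGAA), was found in 2 of 14 S-phase genes and 8 of 20 mitotic genes, against 18.3% of all genes. A CCAAT box (CCAAT), the element bound by NF-Y, was found in 10 of 14 and 17 of 20, against 37.5% of all genes. When only the 100 bases before the start were searched, the E2F count fell to 1 S-phase gene and no mitotic gene, against 0.981% of all genes. A match describes the letters only and is neither a bound site nor a cause. The stretches below are examples chosen for their matches, each 120 bases outside annotated exons and read 5′ to 3′ on the gene's strand. Mcm6 was chosen for its E2F sites, and Cdc20, Top2a and Kif11 for a CHR beside a CCAAT box. Capitals mark E2F, CHR and CCAAT matches on either strand, so that TTCAAA and ATTGG are a CHR and a CCAAT box on the opposite strand, and TTTGGCGCGAAA in Mcm6 is a pair of overlapping E2F matches.
Mcm6: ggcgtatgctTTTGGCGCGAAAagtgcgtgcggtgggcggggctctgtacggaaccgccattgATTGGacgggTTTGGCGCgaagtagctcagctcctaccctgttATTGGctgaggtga
Cdc20: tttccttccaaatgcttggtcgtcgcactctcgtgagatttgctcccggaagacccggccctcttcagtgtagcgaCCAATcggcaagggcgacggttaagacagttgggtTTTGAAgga
Top2a: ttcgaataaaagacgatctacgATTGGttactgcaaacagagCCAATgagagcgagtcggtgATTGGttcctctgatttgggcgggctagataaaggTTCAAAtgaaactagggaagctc
Kif11: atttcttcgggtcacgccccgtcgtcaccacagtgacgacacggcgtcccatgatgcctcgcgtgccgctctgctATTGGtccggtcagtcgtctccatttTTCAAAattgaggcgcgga
These lie at chr1:128359706-128359825 on the minus strand (Mcm6), chr4:118437353-118437472 on the minus strand (Cdc20), chr11:99024190-99024309 on the minus strand (Top2a) and chr19:37376262-37376381 on the plus strand (Kif11).

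The cell cycle genes were lowest in lunch skipping, while the breakfast-skipping groups and dinner skipping lay close together. Together the 46 genes took 0.183% ± 0.00115 of all counts in LSF (SD, n = 3). Their share was 0.255% ± 0.00424 in BSF (n = 2), 0.249% ± 0.00265 in BSF_C (n = 3), 0.241% ± 0.00424 in DSF (n = 2) and 0.277% ± 0.00416 in con (n = 3). By group mean of TMM-scaled CPM, LSF was the lowest of the 4 groups other than con for 40 of the 46 genes, or 87%, against 33% of all genes tested. All 3 LSF libraries lay below all 7 libraries of BSF, BSF_C and DSF for 31 genes (67.4%), and 11% of all genes tested showed the same separation. Those 31 were 20 of the 25 mitotic genes, 10 of the 16 S-phase genes and 1 of the 5 G1 genes. The 6 genes for which another group was lowest were Ccnb2, Ccne2, Cdk1, Cdk2, Cdt1 and Gins2.

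In the class means, the LSF libraries were again below every other library. Averaged over the 16 S-phase genes, log2 CPM was 4.77, 4.84 and 4.82 in the 3 LSF libraries, and between 5.10 and 5.14 in the 7 libraries of BSF, BSF_C and DSF. Averaged over the 25 mitotic genes, it was 4.72, 4.82 and 4.76 in LSF and between 5.16 and 5.22 in the same 7 libraries. For both classes the LSF libraries were separated from the others by more than the spread within any of those groups. The G1 class, with 5 genes, was less clear: its group means were 4.47 ± 0.06 in LSF, 4.63 ± 0.06 in DSF, 4.75 ± 0.14 in BSF_C and 4.79 ± 0.12 in BSF (SD). In con the S-phase mean was 5.16 ± 0.07 and the mitotic mean 5.26 ± 0.05.

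**Figure D1:**
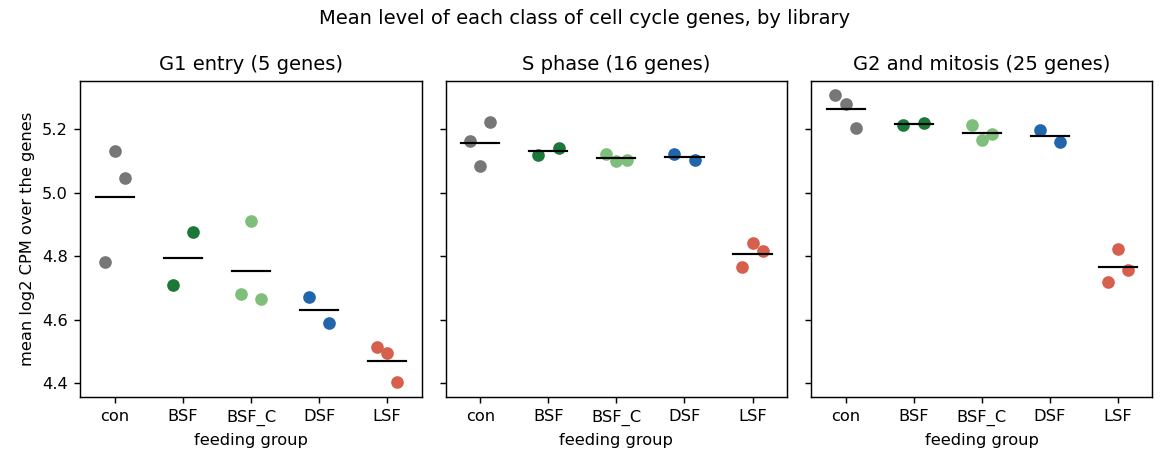
Mean log2 CPM over the genes of each class (vertical axis) in each library, by feeding group; points are libraries and bars are group means. In the S-phase and mitotic panels the 3 LSF points lie below every point of con, BSF, BSF_C and DSF.

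**Figure D2:**
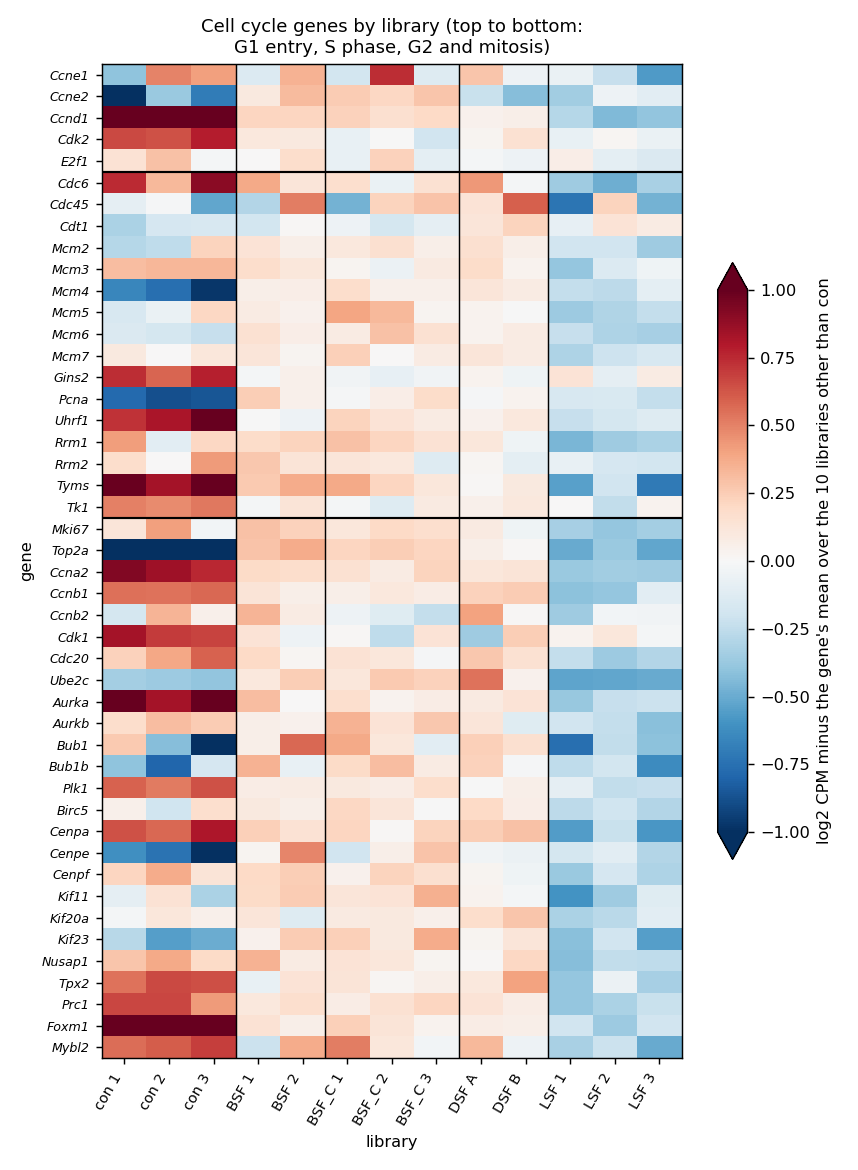
Each of the 46 genes (rows) in each of the 13 libraries (columns), as log2 CPM minus the gene's mean over the 10 libraries other than con, with colour limits at −1 and 1. The LSF columns are blue for most rows, and the con columns hold both the deepest red (Ccnd1, Foxm1) and the deepest blue (Top2a, Cenpe).

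Lunch skipping was compared directly with dinner skipping. Against DSF, 26 of the 46 genes fell in LSF and none rose (edgeR quasi-likelihood test, Benjamini-Hochberg adjusted p under 0.05 over all 14300 genes). Among all genes tested, 6.91% fell and 8.97% rose. The genes that fell were 18 of the 25 mitotic genes, 7 of the 16 S-phase genes and, in the G1 class, Ccnd1 alone. The median log2 fold change over the 46 genes was −0.37, against 0.00 over all genes tested, and single genes ran from −0.83 to 0.16. Of all genes called, 56.5% were higher in LSF, and 38.0% were when libraries were scaled by their totals alone. The count rests on few libraries: it was smaller without either DSF library, as was the share of all genes tested that was called. Those fits take the lone DSF library to vary like the other groups. Without 1 LSF library the count was 20 to 21, all lower, where 12.4% to 13.1% of all genes tested were called in either direction. When all libraries were thinned to the smallest total, 16 genes were called, against 12.1% of all genes tested. In every fit that left out 1 of these 5 libraries, 10 genes stayed called: Ccna2, Ccnb1, Ccnd1, Cdc20, Cenpa, Kif20a, Mcm7, Mki67, Top2a and Ube2c.

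LSF was also set against both breakfast-skipping groups, comparisons added after the data had been seen. They share the LSF libraries with the comparison above, so they are not separate evidence on LSF. Against BSF, 31 of the 46 genes fell and none rose (13.4% and 15.9% of all genes tested), with a median log2 fold change of −0.39. The 31 were 20 mitotic genes, 10 S-phase genes and Ccnd1. Against BSF_C, 33 fell and none rose (15.6% and 17.1% of all genes tested), with a median of −0.38. These were 21 mitotic genes, 10 S-phase genes and 2 G1 genes. Of the calls, 17 against BSF and 27 against BSF_C held in every fit that left out 1 of the libraries compared. With library totals alone, the share of all called genes that were higher went from 54.2% to 37.1% against BSF and from 52.4% to 36.7% against BSF_C.

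**Figure D3:**
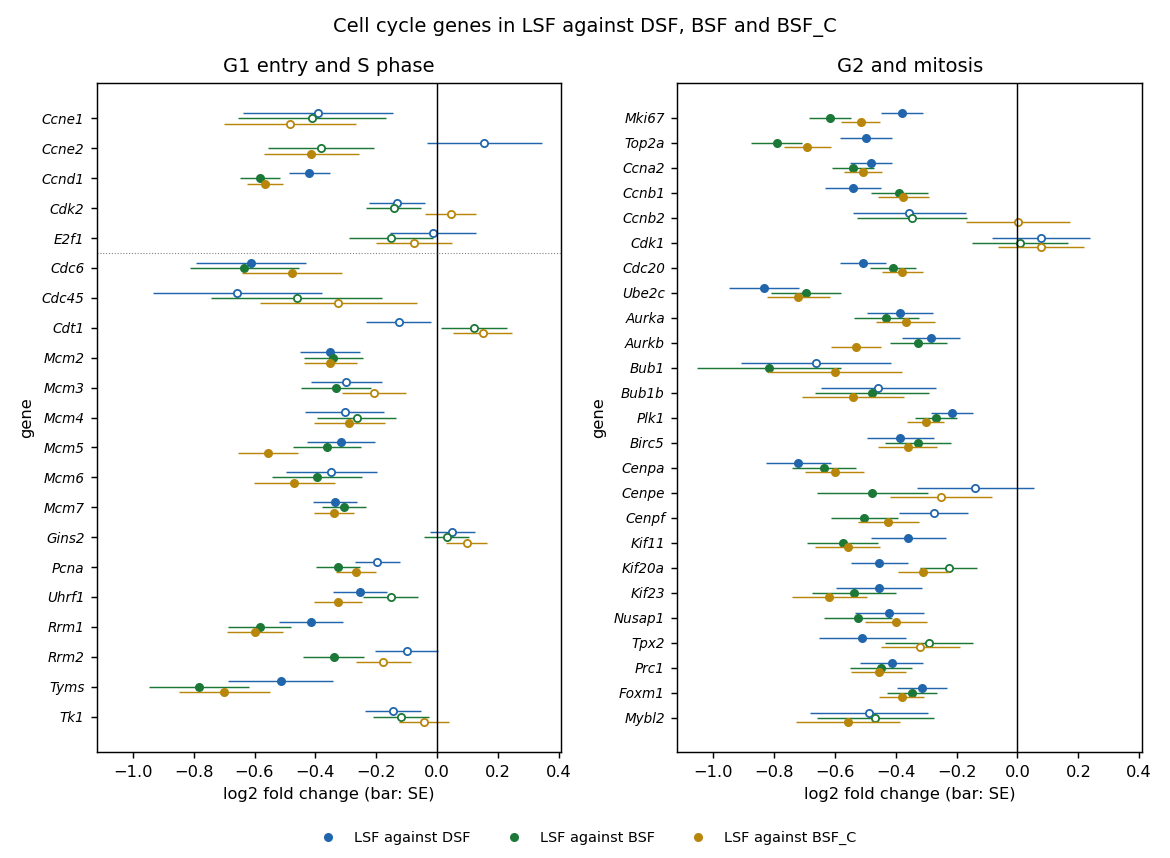
Log2 fold change of LSF against DSF, BSF and BSF_C for each of the 46 genes (points, with bars of 1 SE), G1 and S-phase genes on the left with a dotted line between them and mitotic genes on the right; filled points passed the test. Most points lie left of 0, and those near 0 in all 3 comparisons are Cdk1, Gins2, Cdt1, Cdk2, E2f1 and Tk1.

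The G1 class was led by Ccnd1, which encodes cyclin D1, the cyclin that links growth signals to the start of the cycle. Its level was 126, 113 and 117 CPM in LSF, 158 and 160 in DSF, 178 and 178 in BSF, 180, 172 and 176 in BSF_C, and 373, 395 and 434 in con. The LSF libraries were below all others and the con libraries above all others. Ccnd1 fell by 0.42 ± 0.07 on the log2 scale (SE) in LSF against DSF (edgeR adjusted p = 2.86e-06). Per kilobase of exon it stood at 25.2 CPM in LSF and 85.1 CPM in con, the fourth highest of the 46 genes in LSF.

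In the comparisons of LSF with DSF, BSF and BSF_C, the only other G1 call was Ccne2 against BSF_C. Ccne2, cyclin E2, was at 8.21, 10.1 and 9.70 CPM in LSF, 8.98 and 7.78 in DSF, 11.2 and 13 in BSF, 12.5, 12.1 and 12.7 in BSF_C, and 4.96, 8.11 and 6.45 in con. LSF and DSF overlapped, and both BSF groups were above LSF and DSF. It fell by 0.41 ± 0.16 in LSF against BSF_C (edgeR adjusted p = 0.0358), a call lost in 5 of the 6 fits that left out 1 library (adjusted p up to 0.174), every one but that without LSF replicate 2. It was not called against BSF (−0.38 ± 0.17, edgeR adjusted p = 0.0935). Cdk2, the kinase partner of cyclin E, was at 42.6, 45.5 and 42.8 CPM in LSF and 45.8 and 49.9 in DSF. It was at 48.3 and 48.0 in BSF, 42.7, 44.7 and 39.3 in BSF_C, and 70.8, 69.9 and 77.2 in con. LSF overlapped BSF_C and lay below every DSF and BSF library, and all 4 groups were below con. The log2 fold change of Cdk2 in LSF was −0.13 ± 0.09 against DSF (edgeR adjusted p = 0.384), −0.14 ± 0.09 against BSF (0.245) and 0.05 ± 0.08 against BSF_C (0.722). Ccne1 (log2 fold change of LSF against DSF −0.39 ± 0.25) and E2f1 (−0.01 ± 0.14) did not pass the test in any of the comparisons of LSF with DSF, BSF and BSF_C.

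The genes of origin licensing and the replicative helicase fell in part. The MCM genes encode the hexamer that is loaded on origins in G1 and unwinds DNA in S phase. Mcm7 was at 82.1, 88.1 and 91.2 CPM in LSF, 111 and 108 in DSF, 111 and 104 in BSF, 120, 102 and 108 in BSF_C, and 109, 102 and 110 in con. Its LSF libraries lay below every other library, and it fell by 0.34 ± 0.07 (log2, SE) in LSF against DSF (edgeR adjusted p = 5.3e-04). Mcm2 was at 47.0, 47.0 and 42.0 CPM in LSF, 60 and 55.8 in DSF, 59.1 and 55.9 in BSF, 57.6, 59.9 and 55.9 in BSF_C, and 44.0, 45.1 and 62.7 in con. Mcm2 fell by 0.35 ± 0.10 against DSF (edgeR adjusted p = 0.00728), a call lost without DSF library A or without LSF replicate 3 (highest adjusted p 0.151).

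Mcm6, whose promoter stretch is shown above, moved the same way without passing against DSF. It was at 12.2, 11.6 and 11.4 CPM in LSF, 14.7 and 15.2 in DSF, 15.9 and 15 in BSF, 15.2, 17.6 and 15.9 in BSF_C, and 13, 12.7 and 12.2 in con. The log2 fold change of LSF was −0.35 ± 0.15 against DSF (edgeR adjusted p = 0.12) and −0.47 ± 0.13 against BSF_C (edgeR adjusted p = 0.0048). Mcm5 was at 26.3, 27.6 and 28.8 CPM in LSF, 34.7 and 33.9 in DSF, 35.9 and 35.0 in BSF, 44.5, 42.4 and 34.6 in BSF_C, and 30.4, 32.4 and 39.2 in con. Its LSF libraries were below all others, and against BSF_C it fell by 0.56 ± 0.10 (edgeR adjusted p = 9.58e-06). Its call against DSF (adjusted p = 0.0457) was lost without any 1 of the 5 libraries. Mcm4 was at 17.3, 17.0 and 19.1 CPM in LSF, 22.2 and 21.6 in DSF, 21.3 and 21.4 in BSF, 23.0, 21.1 and 21.1 in BSF_C, and 13, 12.1 and 10.4 in con. It was lowest in con and intermediate in LSF, and its log2 fold change of LSF against DSF was −0.30 ± 0.13 (edgeR adjusted p = 0.112).

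Among the other licensing genes, Cdt1 and Gins2 stood out by not being low in LSF. Cdt1, which loads the MCM hexamer, was at 29.1, 33.9 and 32.6 CPM in LSF, 33.6 and 35.9 in DSF, 27.2 and 31.1 in BSF, 29.7, 27.3 and 29.0 in BSF_C, and 24.8, 27.4 and 27.6 in con. Gins2, a subunit of the active helicase, was at 101, 86.6 and 97.4 CPM in LSF, 94.3 and 89.2 in DSF, 90.6 and 95.1 in BSF, 89.5, 87.0 and 89.9 in BSF_C, and 153, 138 and 158 in con. For both genes LSF overlapped the other skipping groups. Their log2 fold changes against DSF were −0.13 ± 0.11 for Cdt1 and 0.05 ± 0.07 for Gins2. Cdc6, which loads MCM together with Cdt1, fell by 0.61 ± 0.18 (edgeR adjusted p = 0.0129), a call lost without DSF library A or LSF replicate 2 (highest adjusted p 0.411). Mcm3 and Cdc45 did not pass against DSF (−0.30 ± 0.12 and −0.66 ± 0.28), and Cdc45 was the lowest member per kilobase of exon in LSF, at 1.09 CPM.

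At the replication fork, Pcna encodes the sliding clamp that holds the polymerase on DNA, and Uhrf1 a factor that brings the maintenance methyltransferase to new strands. Pcna was at 96.7, 97.1 and 91.8 CPM in LSF, 107 and 111 in DSF, 128 and 112 in BSF, 107, 113 and 123 in BSF_C, and 63.0, 58.8 and 59.9 in con. Every LSF library was below the 7 other skipping libraries and above con. The log2 fold change against DSF was −0.20 ± 0.07 (edgeR adjusted p = 0.0583), and against BSF_C Pcna fell by 0.27 ± 0.07 (edgeR adjusted p = 9.62e-04). Uhrf1 was at 43.8, 45.6 and 47.0 CPM in LSF, 53.1 and 55.3 in DSF, 51.3 and 49.8 in BSF, 59.9, 56.5 and 54.5 in BSF_C, and 84.9, 90.4 and 104 in con. It was lowest in LSF and highest in con, without overlap, and its call against DSF (−0.25 ± 0.09, edgeR adjusted p = 0.0465) was lost without any 1 of the 5 libraries.

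The 4 genes of nucleotide synthesis split. Rrm1 and Rrm2 encode the large and small subunits of ribonucleotide reductase, which makes deoxynucleotides. Rrm1 was at 29.9, 32.1 and 33.0 CPM in LSF, 44.4 and 40.0 in DSF, 46.8 and 47.9 in BSF, 50.5, 47.8 and 45.5 in BSF_C, and 54.9, 38.3 and 47.5 in con. Its LSF libraries were below all others, and it fell by 0.41 ± 0.11 against DSF (edgeR adjusted p = 0.00342, and 0.132 without DSF library A). Rrm2 was at 40.8, 38.2 and 37.7 CPM in LSF, 43.5 and 40.0 in DSF, 51.8 and 46.9 in BSF, 46.7, 46.2 and 39.1 in BSF_C, and 48.3, 43.0 and 57.6 in con. Its LSF libraries overlapped DSF and BSF_C, with a log2 fold change against DSF of −0.10 ± 0.10 (edgeR adjusted p = 0.601).

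Tyms, thymidylate synthase, was the S-phase gene with the largest fall against BSF_C. It was at 8.45, 10.8 and 7.57 CPM in LSF, 12.4 and 13.2 in DSF, 14.8 and 15.9 in BSF, 16, 14.3 and 13.3 in BSF_C, and 24.4, 22.0 and 27.9 in con. LSF was below every other library, by 0.70 ± 0.15 against BSF_C on the log2 scale (edgeR adjusted p = 2.05e-04), while the call against DSF (adjusted p = 0.0306) was lost in 4 of the 5 fits that left out 1 library. Tk1, thymidine kinase of the salvage route, was at 51.9, 43.7 and 53.0 CPM in LSF, 53.7 and 55.8 in DSF, 50.9 and 56.5 in BSF, 50.9, 47.2 and 55.1 in BSF_C, and 73.5, 71.7 and 74.6 in con. LSF lay below both DSF libraries and overlapped BSF and BSF_C, and con was above every other library. The log2 fold change of Tk1 in LSF against DSF was −0.15 ± 0.09 (edgeR adjusted p = 0.331).

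Of the 3 cyclins of G2 and mitosis, Ccna2 and Ccnb1 fell in LSF against DSF, and Ccnb2 and the kinase gene Cdk1 were not called. Ccna2, cyclin A2, acts in S phase and again at mitotic entry. It was at 82.1, 83.3 and 83.1 CPM in LSF, 115 and 116 in DSF, 121 and 120 in BSF, 118, 112 and 124 in BSF_C, and 201, 191 and 179 in con. The LSF libraries were below all others, and Ccna2 fell by 0.48 ± 0.07 against DSF (edgeR adjusted p = 2.55e-07). Ccnb1, cyclin B1 of the mitotic kinase, was at 35.0, 35.6 and 43.1 CPM in LSF, 54.6 and 55.4 in DSF, 50.7 and 48.4 in BSF, 48.4, 49.9 and 49.0 in BSF_C, and 68.1, 67.6 and 69.3 in con. It fell by 0.54 ± 0.09 (edgeR adjusted p = 9.14e-06), again with LSF below every other library. Cdk1, the kinase that cyclin B1 activates, is named after its values were seen. It was at 14.2, 15 and 13.7 CPM in LSF, 10.8 and 16.4 in DSF, 15.2 and 13.4 in BSF, 14.0, 11.6 and 15.2 in BSF_C, and 24.6, 22.5 and 22.1 in con. Its groups overlapped apart from con, with a log2 fold change of 0.08 ± 0.16 against DSF. Ccnb2, cyclin B2, had a log2 fold change of −0.36 ± 0.19 against DSF (edgeR adjusted p = 0.209), and its mean was 8.72 CPM in LSF and 8.69 CPM in BSF_C.

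The anaphase-promoting complex, which destroys mitotic cyclins, was represented by its activator Cdc20 and its ubiquitin-conjugating enzyme Ube2c. Ube2c had the largest fall of all 46 genes against DSF. It was at 22.3, 22.4 and 22.7 CPM in LSF, 46.8 and 33.1 in DSF, 34.5 and 38.1 in BSF, 34.8, 38.6 and 37.6 in BSF_C, and 25.4, 25.0 and 24.4 in con. LSF was below every other library, and DSF library A was the highest of the 13. Ube2c fell by 0.83 ± 0.12 (edgeR adjusted p = 9.8e-08), 1.78-fold lower. Cdc20, named after its values were seen, was the most abundant member per kilobase of exon in every group, from 61.8 CPM in LSF to 101 CPM in con. It was at 120, 110 and 116 CPM in LSF and 171 and 158 in DSF, and fell by 0.51 ± 0.07 (edgeR adjusted p = 4e-07).

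Top2a and Mki67 stand for chromosome structure. Top2a encodes topoisomerase II alpha, which untangles sister chromatids, and Mki67 the Ki-67 protein that coats mitotic chromosomes and marks cycling cells. Top2a was at 48.0, 52.7 and 47.4 CPM in LSF, 71.0 and 68.5 in DSF, 82.8 and 88.0 in BSF, 79.1, 80.9 and 79.2 in BSF_C, and 31.2, 26.8 and 21.7 in con. Its groups formed separate levels, with con lowest, then LSF, then DSF, then both BSF groups. Mki67 was at 217, 209 and 216 CPM in LSF, 291 and 265 in DSF, 335 and 320 in BSF, 296, 314 and 307 in BSF_C, and 297, 363 and 268 in con. LSF was below every other library. In LSF against DSF, Top2a fell by 0.50 ± 0.09 (edgeR adjusted p = 1.55e-05) and Mki67 by 0.38 ± 0.07 (edgeR adjusted p = 4.22e-05).

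The genes of the mitotic kinases and the spindle checkpoint were called in most comparisons of LSF. Of Aurka, Aurkb, Plk1, Birc5, Bub1 and Bub1b, 4 fell against DSF, and all 6 fell against BSF and against BSF_C. Of all genes tested, 6.91% fell against DSF, 13.4% against BSF and 15.6% against BSF_C. Aurka, the kinase of the spindle poles, was at 27.8, 30.8 and 31.0 CPM in LSF, 38.4 and 39.6 in DSF, 44.7 and 36.2 in BSF, 40.5, 37.0 and 38.0 in BSF_C, and 74.5, 64.3 and 83.4 in con. Aurkb, the kinase of the chromosomal passenger complex, was at 43.5, 42.0 and 37.2 CPM in LSF, 54.0 and 45.7 in DSF, 51.6 and 51.1 in BSF, 63.1, 54.5 and 59.7 in BSF_C, and 56.0, 61.5 and 59.2 in con. LSF was below every other library for both. Against BSF_C, Aurkb fell by 0.53 ± 0.08 (edgeR adjusted p = 9.83e-07) and Aurka by 0.37 ± 0.10 (edgeR adjusted p = 0.00242). Against DSF the call was lost for Aurka without DSF library A, DSF library B or LSF replicate 1 (adjusted p up to 0.0925) and for Aurkb without DSF library A or LSF replicate 2 or 3 (up to 0.534). Birc5, survivin of the same complex, lost its call without DSF library A (0.182), and Plk1 without DSF library A or B or LSF replicate 2 or 3 (up to 0.224). The 2 spindle checkpoint genes did not pass against DSF, at −0.66 ± 0.25 for Bub1 and −0.46 ± 0.19 for Bub1b.

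At the centromere, Cenpa encodes the histone variant that marks the site of the kinetochore, and Cenpe and Cenpf encode outer kinetochore proteins. Cenpa was at 26.0, 32.8 and 25.6 CPM in LSF, 45.5 and 47.1 in DSF, 45.2 and 42.3 in BSF, 44.6, 38.6 and 44.8 in BSF_C, and 59.5, 57.0 and 67.3 in con. Its LSF libraries lay below all others, and it fell by 0.72 ± 0.11 against DSF (edgeR adjusted p = 3.83e-07), the second largest fall among the called members. Cenpe was at 9.78, 10.3 and 9.04 CPM in LSF, 10.8 and 10.6 in DSF, 11.3 and 15.5 in BSF, 9.70, 11.5 and 13.5 in BSF_C, and 7.23, 6.65 and 3.22 in con. LSF overlapped BSF_C, and con was below all other groups. Cenpe (−0.14 ± 0.19) and Cenpf (−0.28 ± 0.11, edgeR adjusted p = 0.0961) did not pass against DSF.

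All 6 genes of the spindle and cytokinesis (Kif11, Kif20a, Kif23, Nusap1, Tpx2 and Prc1) fell against DSF, by 0.36 to 0.51 on the log2 scale. Of all genes tested, 6.91% fell in that comparison. Kif23, a motor of the central spindle, was at 14.6, 17.0 and 13.3 CPM in LSF, 19.8 and 21.2 in DSF, 20.1 and 23.2 in BSF, 23.0, 20.8 and 25.2 in BSF_C, and 16.1, 13.3 and 13.8 in con. LSF was below the 7 other skipping libraries and overlapped con. Of the 6, Kif20a alone stayed called against DSF in every fit that left out 1 library. The adjusted p of Kif23 reached 0.17, and it lost its call without DSF library A, DSF library B or LSF replicate 1 or 3. Kif11 reached 0.25, lost without DSF library A, DSF library B or LSF replicate 1 or 2. Nusap1 (0.177) and Tpx2 (0.255) lost theirs without DSF library B, and Prc1 (0.0588) without DSF library A.

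The factors that drive the mitotic wave were Foxm1 and Mybl2. Foxm1 was at 61.6, 54.9 and 61.8 CPM in LSF, 74.2 and 73.5 in DSF, 77.9 and 73.4 in BSF, 83.0, 77.0 and 72.1 in BSF_C, and 188, 178 and 207 in con. LSF was lowest and con highest, without overlap. Foxm1 fell by 0.31 ± 0.08 against DSF (edgeR adjusted p = 0.00415, and 0.0603 without DSF library A). Mybl2, which encodes B-Myb, did not pass against DSF (−0.49 ± 0.19, edgeR adjusted p = 0.0796).

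Set side by side, the mitotic members had the larger median fall in LSF, although a separation of the classes within libraries was lost when medians replaced means. Against DSF, the median log2 fold change was −0.42 over the mitotic class and −0.31 over the S-phase class. Against BSF the medians were −0.47 and −0.34, and against BSF_C −0.42 and −0.33. Within each library, the mean log2 CPM of the S-phase genes minus that of the mitotic genes was 0.045, 0.021 and 0.058 in LSF. It was −0.077 and −0.057 in DSF, −0.095 and −0.079 in BSF, and −0.092, −0.066 and −0.085 in BSF_C. The 3 LSF libraries were above these 7 libraries, which lay within 0.04 of each other. LSF exceeded DSF by 0.108, against a pooled SD of 0.017 between libraries. This difference was 0.084 with Ccna2 and Mybl2 counted as S-phase genes, 0.150 with the G1 genes other than Ccnd1 added to them, and 0.167 when class medians replaced means. With medians the separation by library was lost: the LSF libraries were at 0.184, 0.275 and 0.350, and overlapped BSF_C (0.333, 0.257 and −0.045) and DSF (0.018 and 0.187), with BSF at 0.158 and 0.152. In con the values were −0.143, −0.197 and 0.018, a spread wide enough to reach the LSF libraries. The difference between the classes was not tested.

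**Figure D4:**
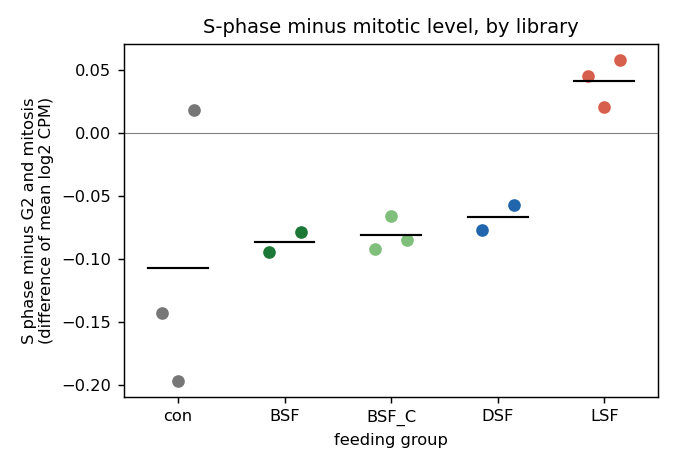
S-phase minus mitotic level (difference of mean log2 CPM, vertical axis) in each library by feeding group; points are libraries and bars are group means. The LSF points lie between 0.021 and 0.058, above the BSF, BSF_C and DSF points, and the con points span −0.197 to 0.018.

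Breakfast skipping and dinner skipping were near each other in these genes. Between BSF_C and BSF none of the 46 genes was called, against 0.133% of all genes tested, and 2 had an unadjusted p under 0.05 in the edgeR test. DESeq2 and limma-voom called none either. Their log2 fold changes ran from −0.35 to 0.20. Against DSF, 2 genes rose in BSF (5.77% of all genes tested rose), Top2a by 0.29 ± 0.09 (edgeR adjusted p = 0.0236) and Mki67 by 0.24 ± 0.08 (edgeR adjusted p = 0.0322). Against DSF, 1 gene rose in BSF_C (5.87% of all genes tested rose), Ccne2 by 0.57 ± 0.18 (edgeR adjusted p = 0.0286). None fell in either comparison, where 6.26% and 5.99% of all genes tested fell. These comparisons were added after the data had been seen. No gene was called in BSF against DSF once any 1 of the 4 libraries was left out, and Ccne2 lost its call without any 1 of the 5 libraries of BSF_C and DSF (highest adjusted p 0.276). The median log2 fold changes over the 46 genes were 0.04 and 0.03.

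The design also sets each breakfast-skipping group against the average of LSF and DSF, which carries the low LSF values. In BSF, 15 genes rose and none fell (9.87% and 11.5% of all genes tested). The largest was Top2a, higher by 0.54 ± 0.07 on the log2 scale (edgeR adjusted p = 1.52e-07), followed in order of p by Mki67 (0.42 ± 0.06) and Ccnd1 (0.37 ± 0.06). Those calls and that of Ccna2 held in every fit that left out 1 library. The count was smaller without either BSF library, as was the share of all genes tested that was called. With library totals alone the count was 23, where 23.1% of all genes tested were called in either direction. In BSF_C, 20 genes rose and none fell (11.2% and 12.2% of all genes tested), led by Ccnd1 (0.36 ± 0.05, edgeR adjusted p = 5.16e-07), Top2a (0.44 ± 0.07) and Mki67 (0.33 ± 0.06). That count was 13 without BSF_C replicate 3, where 17.5% of all genes tested were called in either direction. It was also smaller without DSF library B. With library totals alone, the share of all called genes that were higher went from 46.2% to 60.9% for BSF and from 48% to 60.1% for BSF_C. Because LSF and DSF differed in 26 of these genes, the average describes neither group.

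Against con the members moved in both directions, and this held for all 4 groups. For BSF, 10 rose and 18 fell (38.3% and 31.9% of all genes tested). In BSF_C, 12 rose and 19 fell (39.8% and 33.2%). In DSF, 8 rose and 20 fell (36.6% and 31.1%). In LSF, 6 rose and 30 fell (38.9% and 33%). These 4 comparisons share the con libraries. The share of the 46 genes that fell was thus 65.2% in LSF, 43.5% in DSF, 41.3% in BSF_C and 39.1% in BSF. The median log2 fold change over the 46 genes was −0.52 in LSF, −0.18 in DSF, −0.12 in BSF_C and −0.05 in BSF. The median over all genes tested was 0.10 to 0.12, and 0.20 to 0.29 with library totals alone. With totals alone the medians of the members became −0.42, −0.02, 0.05 and 0.12, so the sign for BSF and BSF_C depends on the scaling. The share of all called genes that were higher, 54% to 54.5%, became 59.5% to 64.4%.

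The same few genes lay at both ends in each group. Ccnd1 fell by 1.75 ± 0.06 in LSF, 1.33 ± 0.07 in DSF, 1.19 ± 0.06 in BSF_C and 1.17 ± 0.07 in BSF, and Foxm1 by 1.68 ± 0.07, 1.37 ± 0.08, 1.30 ± 0.07 and 1.33 ± 0.08. All 8 edgeR adjusted p-values were at or below 6.15e-22. Top2a rose by 0.89 ± 0.10 in LSF, 1.39 ± 0.10 in DSF, 1.58 ± 0.09 in BSF_C and 1.68 ± 0.10 in BSF. Pcna rose by 0.65 ± 0.08, 0.85 ± 0.08, 0.92 ± 0.07 and 0.98 ± 0.08 in the same order, and Mcm4 and Cenpe also rose in all 4 groups. Gins2, Uhrf1, Tyms, Tk1, Cdk1, Cdk2, Ccna2, Ccnb1 and Aurka were among the genes that fell in all 4. Mki67 fell by 0.53 ± 0.07 in LSF (edgeR adjusted p = 2.09e-10) and was not called in the other 3 groups, although with library totals alone it was higher in BSF_C by 0.14 (adjusted p = 0.0492). Several calls against con were lost when 1 of several libraries was left out. Ccne2 in LSF (0.52 ± 0.20) lost its call without con replicate 1 or LSF replicate 2 (adjusted p up to 0.143), and Cdt1 in LSF (0.26 ± 0.11) without con replicate 1 or LSF replicate 2 or 3 (up to 0.128). Mcm6 in BSF_C (0.36 ± 0.15) lost its call without con replicate 3 or BSF_C replicate 2 (up to 0.0944). Since con also differed in its keratinocyte, stem cell, enterocyte, Paneth cell, leukocyte, stromal and heart muscle markers, the part of cell makeup in these differences was not tested.

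**Figure D5:**
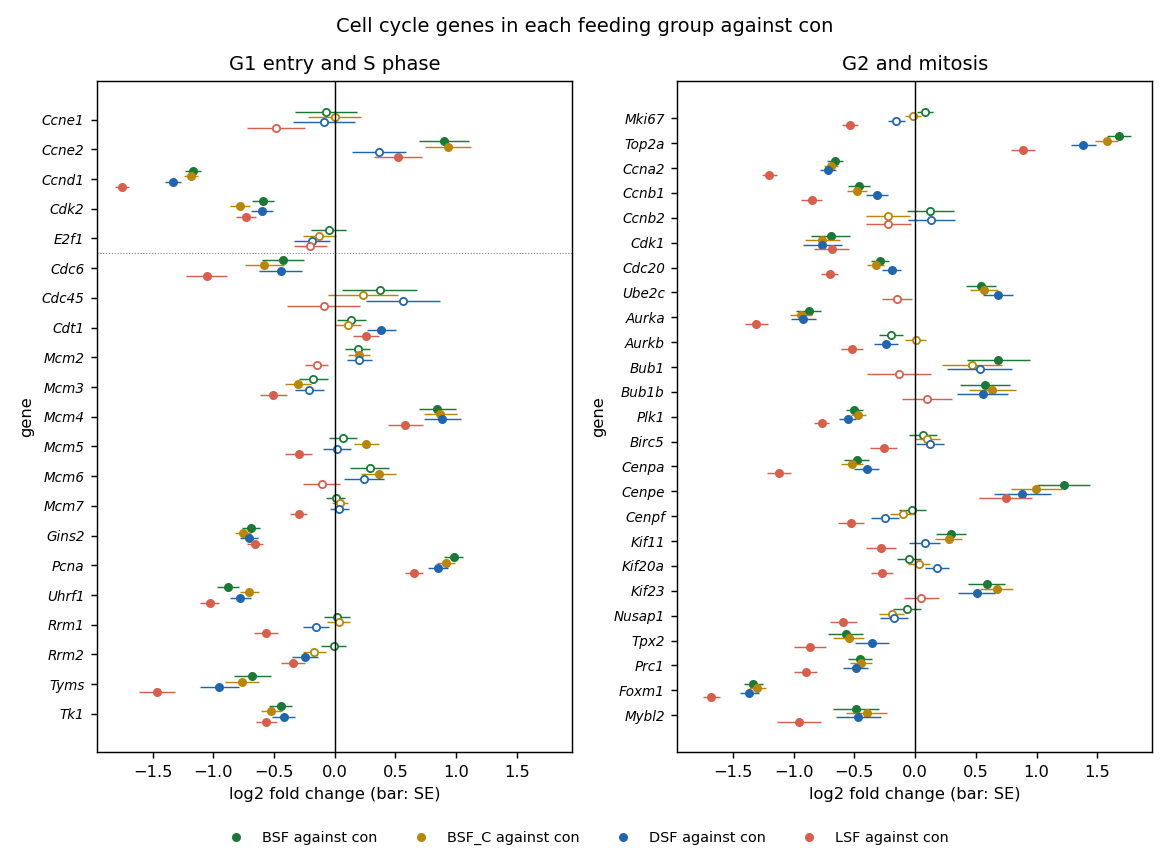
Log2 fold change against con of BSF, BSF_C, DSF and LSF for each of the 46 genes (points, with bars of 1 SE), with G1 and S-phase genes on the left and mitotic genes on the right; filled points passed the test. Ccnd1 and Foxm1 lie farthest to the left, Top2a farthest to the right, and the LSF point is the leftmost for most genes.

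Cell cycle genes outside the 46 were also called lower and not higher in LSF against DSF, where 6.91% of all genes tested fell and 8.97% rose. Of 37 other G2 and mitosis genes, 21 fell in LSF against DSF and none rose, with a median log2 fold change of −0.34. Nek2, a centrosome kinase, was at 51.9, 44.2 and 54.7 CPM in LSF and 75.7 and 72.7 in DSF, and fell by 0.56 ± 0.08 (edgeR adjusted p = 4.85e-07). Cdca3, which promotes mitotic entry, fell by 0.55 ± 0.09 (edgeR adjusted p = 6.54e-06). Of 30 other S-phase genes, 5 fell and none rose (median −0.23), a smaller share and fall than among the S-phase members. Those 5 were led by E2f8, an E2F repressor, with a fall of 0.33 ± 0.10 (edgeR adjusted p = 0.0138), and Nasp, a histone chaperone, with a fall of 0.37 ± 0.12 (edgeR adjusted p = 0.0264). Of 11 other G1 drivers, 3 fell and none rose. E2f2 was at 109, 113 and 109 CPM in LSF and 162 and 167 in DSF, and fell by 0.57 ± 0.07 (edgeR adjusted p = 4.97e-10), while Cdk4, the cyclin D kinase, fell by 0.30 ± 0.06 (edgeR adjusted p = 3.26e-04).

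The genes that restrain the cycle were mixed. Of 23 brakes tested, 4 rose and 5 fell in LSF against DSF (8.97% and 6.91% of all genes tested), with a median of −0.12. The antiproliferative factors Btg2 and Btg1 rose. Btg2 was at 173, 186 and 183 CPM in LSF and 128 and 131 in DSF, higher by 0.48 ± 0.07 (edgeR adjusted p = 1.09e-07). Btg1 was at 349, 342 and 349 CPM in LSF and 259 and 268 in DSF, higher by 0.39 ± 0.06 (edgeR adjusted p = 4.95e-07). Ccng1, cyclin G1, and Cdkn2b, an inhibitor of the cyclin D kinases, fell by 0.27 ± 0.07 and 0.24 ± 0.07 (edgeR adjusted p = 0.00429 and 0.00995).

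Markers of epithelial cell types also differed between LSF and DSF, some lower with the cell cycle genes and others higher. Of 18 intestinal stem cell markers, 7 fell in LSF against DSF and none rose, where 6.91% of all genes tested fell and 8.97% rose. Their summed level was 2160 to 2180 CPM in LSF, 2690 to 2700 in DSF, 2740 to 2870 in BSF, 2700 to 2770 in BSF_C and 4410 to 4570 in con. Olfm4, made by crypt base cells, was at 1300 CPM in each LSF library and 1740 and 1710 in DSF, most of the sum in both groups. It fell by 0.41 ± 0.05 (edgeR adjusted p = 1.62e-09). All 12 enterocyte markers rose in LSF against DSF, with a median of 0.47. Their summed level was 36100 to 36800 CPM in LSF, 24500 to 25000 in DSF, 30500 to 30600 in BSF and 29700 to 32000 in BSF_C. Apoa1, an apolipoprotein of absorbing enterocytes, rose by 0.76 ± 0.05 (edgeR adjusted p = 1.37e-17). The stem cell sum, which rests mostly on Olfm4, was thus lowest and the enterocyte sum highest in LSF among the 4 groups. The part of these cells in the fall of the cell cycle genes was not tested. Of 7 Paneth cell markers tested, 3 fell in LSF against DSF, and the list summed to 1330 to 1410 CPM in LSF, 1510 to 1570 in DSF, 1720 to 1740 in BSF and 1790 to 1840 in BSF_C. The 15 leukocyte markers summed to 313 to 324 CPM in LSF and 322 to 332 CPM in DSF, and none of the 14 tested was called between them. The 8 stromal markers summed to 32.5 to 54.9 CPM in LSF and 30.1 to 38.9 CPM in DSF, and the 8 heart muscle markers to 235 to 277 CPM and 256 to 264 CPM. The breakfast-skipping groups were lower than LSF in both the leukocyte sum (198 to 216 CPM in BSF and 209 to 238 CPM in BSF_C) and the heart muscle sum (91.7 to 93.5 CPM and 87.5 to 103 CPM). The stromal sum was also lower than LSF in BSF, at 13.5 to 14.1 CPM, and overlapped LSF in BSF_C, at 21.3 to 38.9 CPM. The part of these cells in the comparisons with BSF and BSF_C was not tested.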

How the data were processed

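Polyadenylated RNA of sorted jejunal epithelial cells was sequenced, per the labels' protocols. The authors deposited 1 table of raw counts per gene symbol for 13 libraries, with no normalization. STAR 2.7.2e, cutadapt 2.9, DESeq2 1.32.0 and FastQC 0.11.8 are listed with the builds GRCm38 and mm10, without roles or settings, per the submitters' processing notes. No source used here gives the annotation, the strand setting or the handling of multi-mapped reads. Near-identical or oppositely transcribed neighbours may therefore share counts. Total counts per library set the precision, and were lower in con.

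In edgeR 4.0.16 (R 4.3.3), filterByExpr by group removed scarce genes and TMM factors scaled the libraries. The main test was edgeR's quasi-likelihood test, two-sided, fitted once over the 13 libraries by group alone, leaving 8 residual degrees of freedom, with Benjamini-Hochberg adjustment over 14300 genes and a threshold of 0.05. Of 12 comparisons, 4 were added after the data had been seen. The SE is the size of the log2 fold change divided by the square root of the F statistic. Class levels are means of log2 CPM with a prior count of 2, with no test. Exon lengths and coordinates came from GENCODE release M21 on GRCm38, matched by symbol for 99.2% of the table. The DSF columns carry other numbers than the labels, so they are called library A and library B.

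The 46 members, the classes and the gene lists were chosen with earlier results of these data known. Values by library are given for Mki67, Pcna, Ccnd1, Top2a, Mcm6, Ccna2, Ccnb1 and Rrm2, and for up to 3 called genes of each direction and class with the smallest p in a comparison. From other lists up to 2 genes of each direction are named. Genes named after their values were seen include Cdc20, Cdk1 and those given only with a fold change. Alternatives covered scaling (DESeq2 1.42.0 size factors, totals alone), tests (DESeq2 Wald, limma-voom in limma 3.58.1), filters, thinning, a replicate block, each library left out, class assignment and promoter windows. The main test was tested on simulated data.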

Additional observations from a re-analysis of the deposited data

How the results depend on the processing

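The fall of the cell cycle genes in LSF kept its direction in all settings: no member was called higher in LSF against DSF, BSF or BSF_C in any of them. A log2 fold change of at least 1 was also asked for, with the share of all genes tested that met both limits in brackets. None of the called members met it in LSF against DSF (0, 1.42%), LSF against BSF (0, 5.52%) or LSF against BSF_C (0, 5.31%). The same held in BSF (0, 4.1%) and BSF_C (0, 3.85%) against DSF, and in BSF (0, 5%) and BSF_C (0, 4.77%) against the LSF and DSF mean. Against con, 8 members met it in LSF (29.7% of all genes tested), 4 in BSF (28.8%), 3 in DSF (26.2%) and 3 in BSF_C (29%). Thinning all libraries to the smallest total gave 16 members in LSF against DSF (12.1% of all genes tested), 0 in BSF against DSF (7.21%) and 0 in BSF_C against DSF (7.96%). BSF against the mean gave 23 members with library totals alone (23.1% of all genes tested), 9 with the DESeq2 Wald test (15.6%) and 23 with only the groups compared in the fit (29.1%). BSF against DSF gave 0 with the Wald test (7.76% of all genes tested), 4 with only the groups compared (18.8%), 4 with con left out of the fit (18%) and 1 with trends of GC content and exon length removed (11.8%). BSF_C against DSF gave 0 (8.48% of all genes tested), 6 (16.6%) and 6 (16.8%) under the first 3 of these. Of each 6, 5 rose and 1 fell. For the changes with the set of libraries or the test, the cause was not tested. Leaving out 1 library of con, BSF_C or LSF at a time gave the following counts, with the share of all genes tested in brackets. Against con, they were 26 to 28 members in BSF (67.5% to 69%) and 33 to 36 in LSF (69.2% to 70.7%). They were 26 to 30 in BSF_C (69.7% to 71.2%) and 27 to 29 in DSF (64.6% to 66.3%). LSF gave 20 to 21 against DSF (12.4% to 13.1%) and 26 to 29 against BSF (23.9% to 24.5%). Against BSF_C, LSF gave 29 to 32 (26.2% to 27%). Against the mean, BSF gave 12 to 14 (19% to 19.3%) and BSF_C 13 to 19 (17.5% to 21%). BSF_C gave 0 against BSF (0.0844% to 0.162%) and 0 to 1 against DSF (9.24% to 9.29%). Several counts were lower without 1 BSF or DSF library, fits that leave 1 library in that group. Rrm1 in BSF against con became −0.24 (adjusted p = 0.0474) with the GC and length trends removed, and Mki67 in BSF_C against con became 0.14 (adjusted p = 0.0492) with totals alone.

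The S-phase minus mitotic level of LSF over DSF, 0.108 in the main setting, was 0.084 with Ccna2 and Mybl2 as S-phase genes, 0.167 with medians (where the LSF libraries overlapped BSF_C and DSF) and 0.150 with the other G1 genes as S-phase genes. With Ccna2 and Mybl2 moved, BSF, BSF_C, LSF and DSF against con gave −0.090, −0.071, 0.019 and −0.065, BSF_C against BSF 0.019 and BSF_C against the mean −0.048. With medians, DSF against con gave −0.067, BSF_C against BSF 0.027, BSF against the mean −0.031 and BSF_C against the mean −0.004. After thinning, BSF_C against BSF gave −0.025 and BSF_C against the mean −0.093. Leaving out 1 library gave −0.025 to 0.083 for BSF against con, 0.104 to 0.211 for LSF, −0.018 to 0.089 for BSF_C and −0.004 to 0.103 for DSF. It gave −0.001 to 0.014 in BSF_C against BSF, −0.082 to −0.067 in BSF against the mean, −0.076 to −0.063 in BSF_C against the mean and 0.098 to 0.118 in LSF against DSF.

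In the 100 bases before the start, E2F sites were in 1 of 14 S-phase and 0 of 20 mitotic genes, against 0.981% of all genes. The CHR was there in 1 of 14 S-phase and 7 of 20 mitotic genes, against 6.76% of all genes. With TTTAAA added to TTTGAA over 250 bases, the CHR was in 4 S-phase genes (28.6%) and 13 mitotic genes (65%), against 28.1% of all genes. Over all genes tested, libraries of the same replicate number showed no shared deviation (r −0.067 to 0.03 over 15 pairs, −0.043 to 0.052 over 30 pairs of other numbers). An effect shared by few genes could be missed by this check. Whether the numbers pair the libraries was thus not settled. With a replicate block and DSF left out, the members called against con were 27 in BSF (68.3% of all genes tested), 30 in BSF_C (72.2%) and 36 in LSF (71.2%). They were 0 in BSF_C against BSF (0.126%), 28 in LSF against BSF (25.3%) and 32 in LSF against BSF_C (30.7%). Depth limits the scarce members most: in LSF against DSF the SE of the log2 fold change was 0.28 for Cdc45, 0.25 for Bub1 and 0.25 for Ccne1, and 0.07 for Mki67.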
